A study of Homo sapiens with 32 samples.

Results

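The DNAJ proteins, also called HSP40s or J-domain proteins, are the cochaperones that deliver substrates to HSP70 chaperones. The members described here were the 40 genes of classes A, B and C (4, 10 and 26 genes) whose symbol begins with DNAJA, DNAJB or DNAJC and that were named in the rule for the family, out of 60107 genes in the count table. All 40 were found by gene symbol. The choice was made by name and used no measured value, although results of these data were already known when the list and the groups below were drawn up.

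A J-domain stimulates the ATPase of HSP70, which closes the chaperone on its client, and nucleotide exchange factors such as the BAG proteins and HSPH1 then open it again. Class A and B members bind clients themselves and many work in the cytosol, where DNAJA1, DNAJA2, DNAJB1 and DNAJB4 serve HSPA8 and HSPA1A in refolding and in taking aggregates apart. Class C members carry the J-domain in otherwise unrelated proteins and bring HSP70 to a place or a task, such as the translocon, the mitochondrial import motor, clathrin coats, the ribosome or the spliceosome. In the endoplasmic reticulum (ER), DNAJB9, DNAJB11, DNAJC1, DNAJC3 and DNAJC10 work with the HSP70 of that compartment, HSPA5 (BiP).

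The study asked whether genotoxic conditions, among them loss of the DNA damage kinase ATM and trapping of topoisomerase I, change protein aggregation, and measured RNA beside the proteome. HEK293T cells are a human embryonic kidney line that carries the large T antigen, which binds p53, and U2OS cells are a human osteosarcoma line with functional p53. Camptothecin (CPT) traps topoisomerase I on DNA, and DMSO is the vehicle that the control cells received. RNA of 32 samples was sequenced from the 3′ end of poly(A) RNA with the Lexogen QuantSeq kit, so that a transcript gives tags from its end whatever its length, and levels are given as CPM, counts scaled to the same total on genes in every library, which were not divided by length.

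The libraries are called here by the number in their title. Libraries 26 to 29 were U2OS CPT and 30 to 33 U2OS DMSO. Per the methods of the study the drug was replaced by fresh medium after 24 h and cells were collected 48 h later, and the labels give these times for HEK293T. Libraries 22 to 25 were HEK293T DMSO. Libraries 18 to 21 carry the label HEK293T ATM KO, but the study describes RNA of HEK293T cells treated with the ATM inhibitor KU-55933 and of no HEK293T knockout, so they are called HEK293T ATM inhibitor here. Among libraries 1 to 17 (number 9 is not used), the labels give HEK293T CPT for 2, 4, 6 and 8, HEK293T DMSO for 3, 5, 7 and 17, U2OS WT for 1, 11, 13 and 15 and U2OS ATM KO for 10, 12, 14 and 16, the last 2 groups after 72 h of growth. The U2OS ATM knockout was made with CRISPR/Cas9 and repair plasmids from picked clones, so a difference from wild type may belong to the clone.

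The labels of 14 of the 16 libraries numbered 1 to 17 did not match their expression profile. By correlation with libraries 18 to 33, all 8 libraries numbered 1 to 8 were nearer to U2OS and all 8 numbered 10 to 17 nearer to HEK293T, while libraries 18 to 33 all matched their label. The 8 U2OS markers summed to at least 1113 CPM in libraries nearer to U2OS and at most 129 CPM in those nearer to HEK293T. The 6 HEK293T markers summed to at least 739 CPM in libraries nearer to HEK293T and at most 97.1 CPM in those nearer to U2OS. If the names of the cell lines had been exchanged between the blocks of numbers, libraries 10 to 17 would be HEK293T after CPT or DMSO and 1 to 8 U2OS with and without ATM, but no label or file header says so. HSPA1A, an inducible cytosolic HSP70, split the same way. It had 110.6 to 219 CPM in libraries 1 to 8 and 84.8 to 237 CPM in 26 to 33. Against this stood 0.846 to 5.56 CPM in 10 to 17 and 2.24 to 10.47 CPM in 18 to 25. HSPA1B, another HSP70 gene, ran the other way with overlap. HSPA1B had 21.9 to 49.1 CPM in 1 to 8 and 19.7 to 62.3 CPM in 26 to 33. Libraries 10 to 17 had 26.9 to 218 CPM of it and 18 to 25 had 84.3 to 201 CPM. In the main fits no library was moved to another group, but libraries 1 and 17 were left out. Their profile differed from that of the other libraries with the same label. Libraries numbered 1 to 17 are called "libraries labelled" below, and no direction of a treatment is drawn from them. Totals were 1232674 to 6362433 counts on genes per library (median 3359463.5), 3 counts stood for 0.472 to 2.43 CPM, and the 40 members together took 2498 to 3515 CPM.

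Promoter sequences are shown for members that hold letters of the heat shock element, since several members of the family are known to be heat shock inducible. The searched letters were GAANNTTC and TTCNNGAA, each its own reverse complement, which are paired units of the element bound by heat shock factor 1. They occurred in the 250 bases before the RefSeq start in 4067 of 35116 promoters (11.6%) and in 6 of the 37 members that the promoter table holds, namely DNAJA1, DNAJA4, DNAJB1, DNAJB4, DNAJB6 and DNAJC15. A member was counted if any promoter of its symbol held the letters, here and for the letters below. The share of all promoters counts each promoter by itself, so member counts and that share are in unlike units. A match of letters is a description and not a bound site, and the search was made with results known. Below, the bases that no exon of the gene in GENCODE 29 covers are printed 5′ to 3′ on the strand of the gene from GRCh38.p14 (RefSeq), with the letters searched in capitals; the window of DNAJC15 lay wholly in its annotated first exon and is not shown.
DNAJA1 (chr9:33025023-33025210, plus strand): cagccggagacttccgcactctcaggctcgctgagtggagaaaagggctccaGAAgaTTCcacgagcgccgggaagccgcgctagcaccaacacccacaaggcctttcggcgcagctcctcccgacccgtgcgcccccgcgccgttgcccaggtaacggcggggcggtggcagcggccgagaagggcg
DNAJB1 (chr19:14518421-14518647, minus strand): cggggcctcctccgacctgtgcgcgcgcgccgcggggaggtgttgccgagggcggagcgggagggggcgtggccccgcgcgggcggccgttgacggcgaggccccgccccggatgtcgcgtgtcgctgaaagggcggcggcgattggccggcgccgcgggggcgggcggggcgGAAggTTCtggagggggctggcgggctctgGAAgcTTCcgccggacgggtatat
DNAJB4 (chr1:78004689-78004853, plus strand): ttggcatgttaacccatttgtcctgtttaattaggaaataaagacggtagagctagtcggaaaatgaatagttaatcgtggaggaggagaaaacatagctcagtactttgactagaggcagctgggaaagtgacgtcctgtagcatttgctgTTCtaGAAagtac
DNAJB6 (chr7:157336774-157336965, plus strand): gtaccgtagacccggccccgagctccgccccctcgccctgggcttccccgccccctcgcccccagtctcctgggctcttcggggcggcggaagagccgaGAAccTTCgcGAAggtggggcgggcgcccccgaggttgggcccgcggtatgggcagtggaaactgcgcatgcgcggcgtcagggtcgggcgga
DNAJA4 (chr15:78264394-78264543, plus strand): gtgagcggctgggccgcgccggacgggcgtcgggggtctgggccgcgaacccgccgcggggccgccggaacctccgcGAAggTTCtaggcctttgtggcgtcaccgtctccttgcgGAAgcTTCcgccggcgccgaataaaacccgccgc

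DNAJB1 and DNAJA4 each held 2 separate matches. In DNAJB6 the letters ran on as 3 alternating units (GAA and TTC in turn, with any pair of bases between units, on either strand), which 0.441% of promoters held and no other member did. The box CCAAT (or ATTGG) was found in 14 of 37 members against 32% of all promoters. The ER stress element, searched on both strands, was found in none of the members and in 26 of 35116 promoters (0.074%). At that share no match is likely in any 37 genes, so its absence says nothing about the family.

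**Figure D1:**
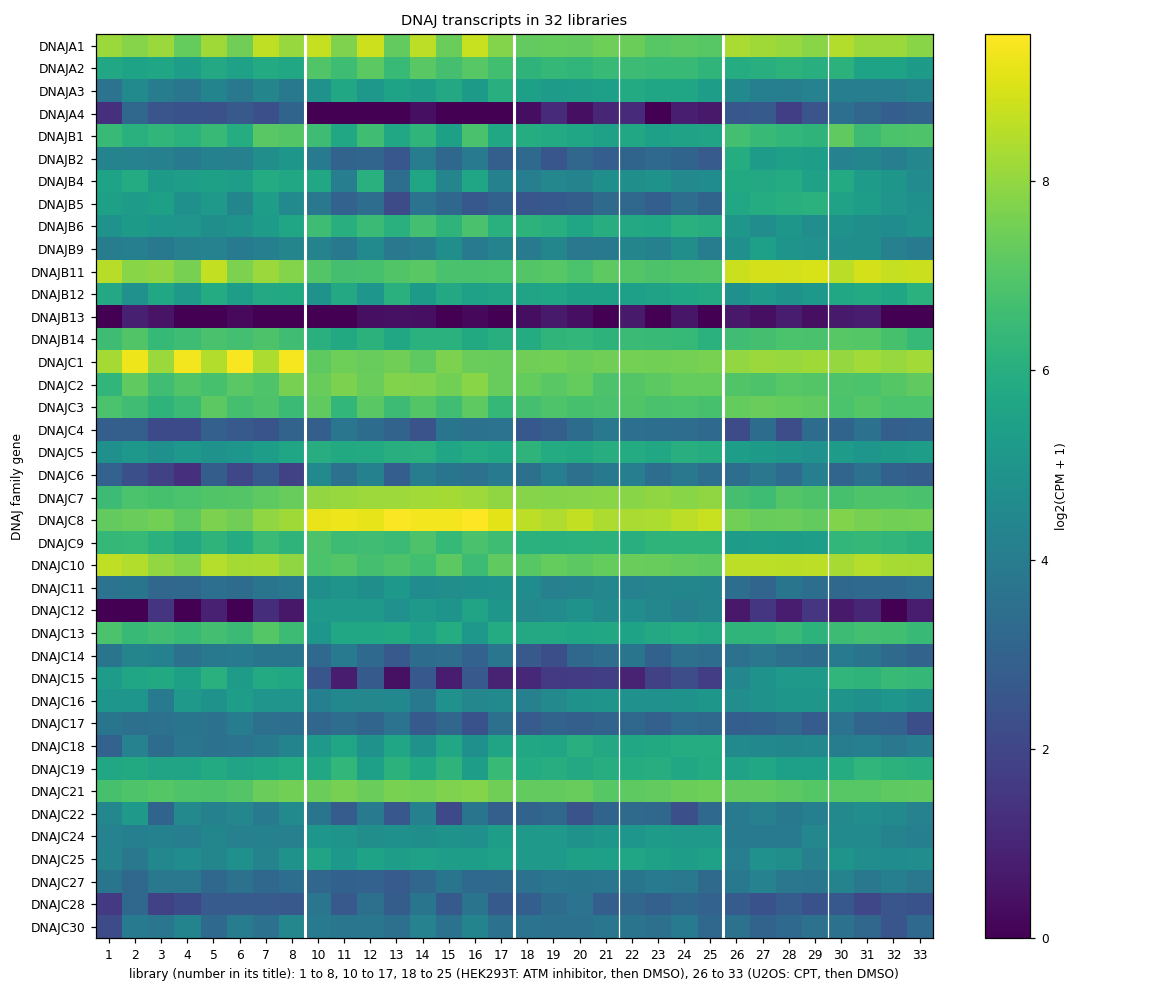
Level of the 40 members (rows) in 32 libraries (columns, by the number in the title) as log2(CPM + 1), with no averaging. Libraries 1 to 8 resemble the U2OS libraries 26 to 33 at DNAJC12 and DNAJC15, and libraries 10 to 17 resemble the HEK293T libraries 18 to 25.

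Camptothecin in U2OS cells went with higher transcripts of several ER and cytosolic members and lower transcripts of DNAJB12, DNAJC9, DNAJC15 and DNAJC19. Libraries 26 to 29 were compared with 30 to 33 by the quasi-likelihood test of edgeR with Benjamini-Hochberg adjustment over all genes tested, and a gene was called at an adjusted p under 0.05. Fold changes carry TMM scaling and CPM does not, so a ratio of CPM differs from the fitted fold. The study describes the libraries of a group as independent repeats, which the labels do not detail. Overlap between groups is described for single genes, and the share of all genes without overlap was not counted in any comparison. Of the 40 members 14 were called, 10 higher and 4 lower, that is 35.0% against 31.9% of all 19080 genes tested (16.6% higher and 15.3% lower), so the family as a whole was called about as often as other genes. The median log2 fold change of the members was 0.18, and that of all genes 0.0078. When the libraries were scaled by their total counts alone, without TMM factors, the median of all genes moved to -0.16, the median of the members to 0.0041, and 7 members were higher and 8 lower; DNAJA2, DNAJB11 and DNAJC10 were then no longer called. With the further cutoff of an absolute log2 fold change over 1, which 13.5% of all genes passed (7.97% higher and 5.50% lower), 2 members remained, DNAJB2 upward and DNAJC15 downward.

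Of the 9 cytosolic HSP70 partners 4 were higher and none was lower, but with total-count scaling 3 were higher and 2, DNAJA4 and DNAJB1, lower. DNAJB2, whose protein binds ubiquitin and passes clients of HSP70 to the proteasome, stood at 60.0, 36.6, 41.9 and 38.4 CPM in libraries 26 to 29 and at 17.9, 19.6, 15.8 and 20.2 CPM in libraries 30 to 33. Every CPT library lay above every DMSO library, and the fitted level was 2.70-fold higher (log2 fold change 1.43, SE 0.16, adjusted p = 1.75e-08). DNAJB5, a member close in sequence to DNAJB1 and DNAJB4, had 50.3, 58.6, 62.0 and 68.3 CPM after CPT and 44.1, 40.3, 30.2 and 26.9 CPM after DMSO. These groups did not overlap either, at a log2 fold change of 0.94 (SE 0.14, adjusted p = 2.07e-06). DNAJB4 had 55.3, 54.0, 57.1 and 43.7 CPM after CPT and 56.5, 36.5, 31.9 and 23.3 CPM after DMSO. DNAJA2 had 59.7, 61.7, 71.0 and 61.8 CPM after CPT and 69.2, 45.8, 45.4 and 36.3 CPM after DMSO. Both were called higher, by 0.70 (SE 0.16, adjusted p = 0.00095) and 0.56 (SE 0.14, adjusted p = 0.00189), but library 30 reached into the range of the CPT libraries at both genes.

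The other partners did not pass the test. DNAJA4 had 5.002, 5.58, 2.42 and 4.68 CPM after CPT and 10.2, 7.91, 6.15 and 7.21 CPM after DMSO, all CPT libraries lying below all DMSO libraries (log2 fold change -0.63, SE 0.26, adjusted p = 0.0659). DNAJA1, the most abundant class A member, had 322, 288, 269 and 232 CPM after CPT and 348, 277, 273 and 230.2 CPM after DMSO (adjusted p = 0.323). DNAJB1, the inducible cytosolic partner of HSP70 in disaggregation, had 102, 88.1, 78.6 and 73.3 CPM after CPT and 149, 93.2, 115 and 121 CPM after DMSO, with a log2 fold change of -0.31 (SE 0.13, adjusted p = 0.0684). The call for DNAJB1 changed with the setting: it was lower at an adjusted p of 0.00451 with total-count scaling and was also called lower without library 26 or without library 31. DNAJB6, which keeps amyloid-forming proteins from nucleating, had 32.4, 24.5, 31.9 and 24.6 CPM after CPT and 29.3, 26.2, 24.0 and 28.1 CPM after DMSO, and the groups overlapped (adjusted p = 0.217).

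Among the 11 ER members 5 were higher and 1 was lower. DNAJC3, a BiP cochaperone of the ER lumen, had 155, 165, 158 and 149 CPM after CPT and 114, 129, 114 and 114 CPM after DMSO, 1.503-fold higher with no overlap (log2 fold change 0.59, SE 0.11, adjusted p = 8.1e-05). DNAJB9, which holds the stress sensor IRE1 inactive through BiP, had 26.5, 40.6, 30.1 and 27.8 CPM after CPT and 24.4, 26.2, 16.7 and 14.7 CPM after DMSO. The log2 fold change was 0.81 (SE 0.17, adjusted p = 0.000402), and the lowest CPT library lay just above the highest DMSO library. DNAJC10, a disulfide reductase that helps ER-associated degradation, averaged 384 ± 6.74 CPM after CPT and 322 ± 22.3 CPM after DMSO (SD, n = 4 each), and DNAJC18 averaged 21.2 ± 1.09 and 15.2 ± 1.48 CPM. Both were higher without overlap, with log2 fold changes of 0.42 and 0.64. DNAJB11, which binds unfolded secretory clients together with BiP and was the most abundant member in U2OS, had 438, 489, 469.9 and 500.3 CPM after CPT and 380.0, 494, 414 and 443 CPM after DMSO. Its groups overlapped, and its call (log2 fold change 0.30, SE 0.11, adjusted p = 0.0406) was lost without any of libraries 27, 28, 29, 30 or 32.

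DNAJB12, an ER membrane protein that recruits cytosolic HSPA8 to misfolded membrane proteins, moved the other way. It had 26.8, 35.4, 29.1 and 33.4 CPM after CPT and 51.6, 56.8, 48.9 and 67.8 CPM after DMSO, a log2 fold change of -0.69 (SE 0.14, adjusted p = 0.000322) with no overlap.

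Of the 7 mitochondrial members 2 were lower and none was higher, and the median log2 fold change of the 7 was 0.28. DNAJC15, an inner membrane protein that restrains complex I of the respiratory chain, had 20.3, 28.8, 35.3 and 35.2 CPM after CPT and 77.5, 73.6, 85.5 and 81.5 CPM after DMSO. The groups were far apart, and the fitted level was 2.38-fold lower (log2 fold change -1.25, SE 0.15, adjusted p = 3.9e-08). DNAJC19, a subunit of the mitochondrial import motor, had 44.1, 50.2, 41.2 and 41.5 CPM after CPT and 59.9, 76.0, 69.1 and 64.4 CPM after DMSO (log2 fold change -0.43, SE 0.13, adjusted p = 0.00938), also without overlap. DNAJC19 has 9 annotated pseudogenes and DNAJA1 has 6, and how tags that fit a copy were counted is not given in the sources used here.

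DNAJC9 and DNAJC6 were called outside these groups of compartments. DNAJC9, a cochaperone of histones H3 and H4 in the nucleus, had 36.5, 40.01, 37.1 and 38.7 CPM after CPT and 79.3, 80.5, 76.2 and 70.2 CPM after DMSO, 1.78-fold lower (log2 fold change -0.83, SE 0.12, adjusted p = 1.52e-06). Its locus overlaps MRPS16 on the same strand and 3 genes on the other, among them DNAJC9-AS1. DNAJC6, the auxilin that uncoats clathrin vesicles, had 10.0, 12.7, 9.003 and 16.5 CPM after CPT and 7.72, 10.7, 6.74 and 6.01 CPM after DMSO, higher by a log2 fold change of 0.83 (SE 0.23, adjusted p = 0.00463) with overlapping groups.

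**Figure D2:**
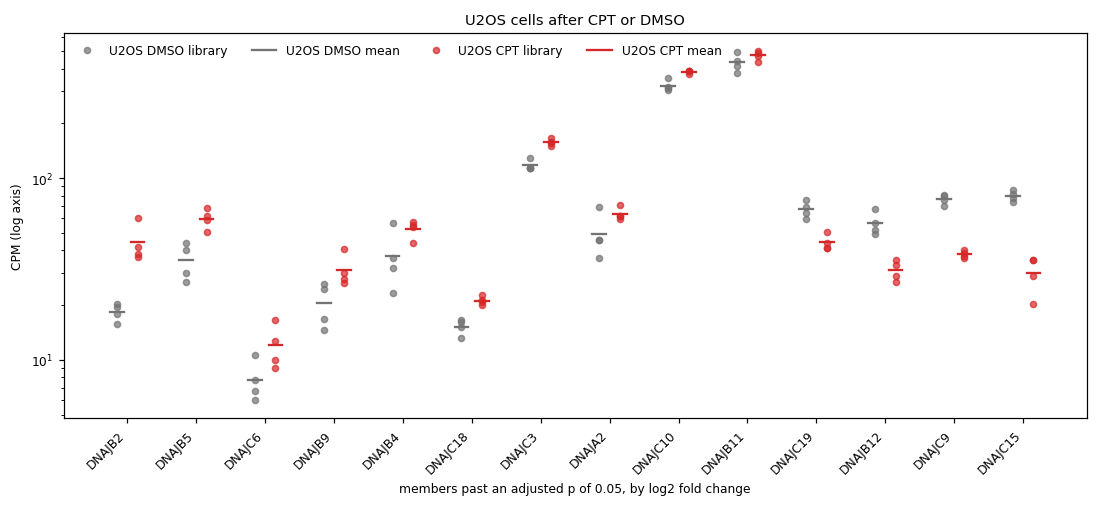
CPM (log axis) of the 14 members called in U2OS CPT against U2OS DMSO, ordered by log2 fold change; points are libraries and short lines are means of 4. DNAJB2 and DNAJC15 at the ends are the pair whose change exceeded 1 on the log2 scale.

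The genes around the family in U2OS after CPT were counted from lists drawn up with the family. Total-count scaling, which lowered the median of all genes, was not applied to these lists. Of 15 ER stress targets 10 were higher and none was lower, with EDEM1 (0.71) and CRELD2 (0.69) the most changed. EDEM1 overlapped between groups, at 37.1 to 51.5 CPM after CPT and 15.9 to 44.8 CPM after DMSO, whereas CRELD2 did not. HSPA5 was not called (0.20, adjusted p = 0.197 by edgeR). Of 16 heat shock targets tested 2 were higher and 7 lower, with HSPA1A (-0.90) and HSPA1B (-0.86) the most changed. Of 23 HSP70 genes and exchange factors 4 were higher and 6 lower, among them SIL1, the exchange factor of BiP, at 0.97. All 10 p53 targets were higher, CDKN1A by a log2 fold change of 2.24 and GDF15 by 3.63. The U2OS markers summed to 2570 to 2696 CPM after CPT and 1113 to 1345 CPM after DMSO (6 of 8 higher, CD44 the most), while the HEK293T markers summed to 46.5 to 54.3 and 43.4 to 52.8 CPM. The part of these markers in the changes of the family was not tested. In bulk RNA, fewer cells that express a gene and less of it per cell cannot be told apart.

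In HEK293T cells treated with the ATM inhibitor (libraries 18 to 21), no member passed the test against libraries 22 to 25. The test called 1 of 18413 genes (0.00543%), and 2 members stood at an unadjusted p under 0.05 against 5.52% of all genes; the likelihood ratio test of edgeR and DESeq2 called no member either. Log2 fold changes of the members ran from -0.49 (DNAJC14, SE 0.24) to 0.32 (DNAJC12, SE 0.15), those 2 being the members at an unadjusted p under 0.05, with a median of -0.0024. The smallest adjusted p was 0.887. ATM itself is inhibited as a protein in this design, and its transcript had 54.5 to 74.1 CPM with the inhibitor and 57.8 to 82.0 CPM with DMSO.

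Log2 fold changes of the 9 cytosolic partners ran from -0.30 to 0.24 between these groups. DNAJA1 had 151, 157, 150.1 and 172 CPM with the inhibitor and 167, 134, 139.8 and 133 CPM with DMSO (log2 fold change 0.20, SE 0.10). DNAJB1 had 58.9, 56.4, 48.2 and 43.5 CPM with the inhibitor and 51.7, 41.1, 44.3 and 47.1 CPM with DMSO (0.24, SE 0.13). DNAJA2 had 72.7, 80.5, 77.0 and 86.7 CPM against 93.6, 85.4, 86.7 and 74.4 CPM (-0.04, SE 0.10). All 3 overlapped, as did DNAJB6 at 71.9, 61.8, 48.9 and 61.3 CPM against 53.8, 52.3, 65.6 and 60.1 CPM.

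Among the 11 ER members DNAJC14, given above, was at an unadjusted p under 0.05, and DNAJC1 did not overlap between groups (168 to 182.01 CPM with the inhibitor and 182.2 to 195 CPM with DMSO, log2 fold change -0.02). DNAJB9 had 14.4, 19.9, 13.1 and 13.4 CPM with the inhibitor and 19.1, 17.4, 25.3 and 15.1 CPM with DMSO (log2 fold change -0.28, SE 0.18). DNAJB11 had 127, 133, 113 and 143 CPM against 126, 117, 124 and 127 CPM (0.12, SE 0.10). DNAJC3 had 105, 121, 108 and 111 CPM against 123, 111, 115 and 107 CPM (0.02, SE 0.10). None of the 17 heat shock targets, 15 ER stress targets, 25 HSP70 genes and exchange factors or 10 p53 targets tested was called by edgeR, and the smallest adjusted p in these lists was 0.79.

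**Figure D3:**
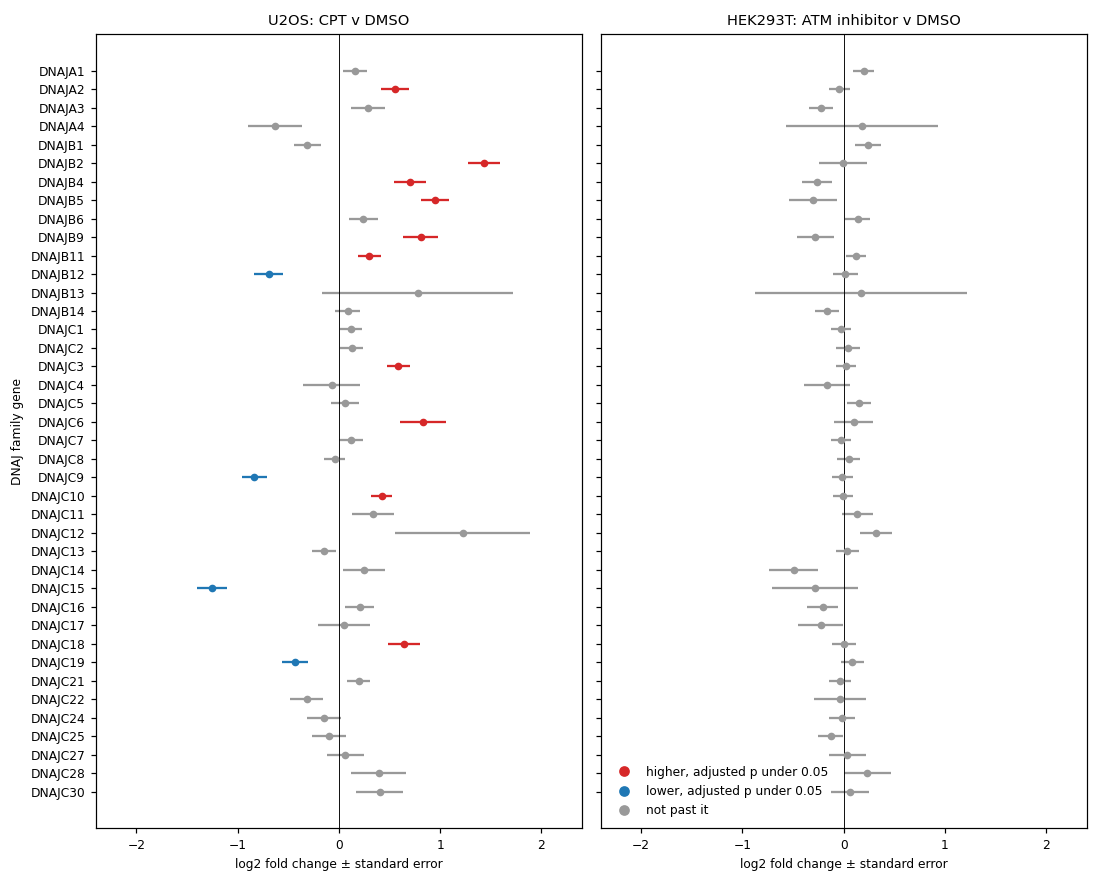
Log2 fold change with its standard error for each of the 40 members in U2OS CPT against DMSO (left) and HEK293T ATM inhibitor against DMSO (right). On the left 10 members are marked higher and 4 lower, and on the right none is marked.

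Libraries 2, 4, 6 and 8, labelled HEK293T CPT, were set against libraries 3, 5 and 7, labelled HEK293T DMSO, with library 17 of that label left out because its profile was of the other kind. All 7 libraries fitted were nearer to U2OS, so the name of the cell line and possibly of the treatment is in doubt. ATM had 61.7, 52.9, 54.7 and 34.2 CPM in 2, 4, 6 and 8 and 68.4, 53.4 and 63.5 CPM in 3, 5 and 7. Of 39 members tested (DNAJB13 had too few counts) 7 were called, 4 higher and 3 lower, or 17.9% against 10.4% of 18515 genes (4.89% higher and 5.55% lower). This count ranged from 2 (without library 7) to 9 (without library 8) when libraries were left out in turn. It was 3 without library 6 and 4 without library 3 or 5. With library 17 added as labelled it was 0. The share of all genes called was 6.96% without library 7, 14.2% without library 8 and 0.205% with library 17 added. Adding library 1, of the same profile, to libraries 3, 5 and 7 gave the same 7 calls. With total-count scaling 2 members were higher and 3 lower. Past the cutoff of 1 stood DNAJC1 alone, on the higher side, against 4.46% of all genes (2.32% higher and 2.14% lower).

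DNAJC1, an ER membrane protein whose cytosolic part binds the ribosome, was the clearest difference. It had 629, 661, 711 and 691 CPM in libraries 2, 4, 6 and 8 and 275, 353 and 333 CPM in libraries 3, 5 and 7, and library 1, of the same profile and labelled U2OS WT, had 306 CPM. The fitted level was 2.10-fold higher in 2, 4, 6 and 8 (log2 fold change 1.07, SE 0.16, adjusted p = 1.22e-05), and stayed called without any of the 7 libraries in turn. In every other library of the series DNAJC1 lay between 144 and 301 CPM.

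DNAJA1 had 223, 154, 179 and 267 CPM in libraries 2, 4, 6 and 8 and 275, 289.6 and 393 CPM in 3, 5 and 7, a log2 fold change of -0.64 (SE 0.16, adjusted p = 0.00611). The call was lost without library 7 (adjusted p = 0.0902). DNAJB11 had 228, 192, 204 and 219 CPM against 246, 408 and 279 CPM (-0.58, SE 0.16, adjusted p = 0.0179), and was not called without library 6 (adjusted p = 0.062) or without library 5, which moved its log2 fold change to -0.31 (adjusted p = 0.326). DNAJB5 had 36.5, 26.5, 19.8 and 22.5 CPM against 42.0, 34.5 and 38.7 CPM, with overlap (-0.63, SE 0.20, adjusted p = 0.0319). That call was lost with DESeq2 (adjusted p = 0.0805), with the filterByExpr filter of edgeR (0.058) and without library 3, 6 or 7 (0.0674 to 0.189). Higher in 2, 4, 6 and 8 were DNAJC22 (34.9, 21.7, 20.7 and 22.3 against 7.36, 17.5 and 14.2 CPM), DNAJC2, a ribosome-associated member (148, 125, 138 and 189.6 against 98.6, 108 and 119 CPM), and the mitochondrial DNAJC30 (14.6, 18.8, 14.9 and 20.3 against 12.5, 8.49 and 11.2 CPM). Their log2 fold changes were 0.81, 0.46 and 0.70, at adjusted p of 0.0191, 0.0496 and 0.0433 by edgeR, and leaving out single libraries removed these calls, DNAJC2 in each case.

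Members that did not pass in this comparison included the other genes named by the rule. DNAJB1 had 65.7, 68.3, 59.9 and 127 CPM in 2, 4, 6 and 8 and 77.9, 86.5 and 136 CPM in 3, 5 and 7, and libraries 8 and 7 were the highest of their groups. Without library 8 it was called lower (log2 fold change -0.61, adjusted p = 0.00773). DNAJB6 had 35.7, 30.8, 28.6 and 49.8 CPM against 31.6, 26.01 and 38.2 CPM, and DNAJA2 had 45.4, 38.5, 43.2 and 51.9 CPM against 49.8, 53.4 and 56.2 CPM. DNAJB9 had 16.2, 16.8, 14.1 and 19.6 CPM against 13.4, 17.8 and 16.6 CPM, and DNAJC3 had 98.2, 89.0, 105 and 90.2 CPM against 73.6, 141 and 118 CPM. The U2OS markers summed to 1332 to 1777 CPM in 2, 4, 6 and 8 and 1321 to 1684 CPM in 3, 5 and 7. Of the 8 U2OS markers 3 were called higher and 2 lower. The HEK293T markers summed to 64.0 to 97.1 and 45.4 to 51.3 CPM, with CKB and PAX2 higher. The part of either list in the calls of members was not tested. Of 16 heat shock targets 1 was called (HSPA1A, log2 fold change -0.58), of 15 ER stress targets 3 were lower and none higher, and of 10 p53 targets 1 was higher (GDF15, 1.15).

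Libraries 10, 12, 14 and 16, labelled U2OS ATM KO, were set against libraries 11, 13 and 15, labelled U2OS WT, leaving out library 1 of that label. All 7 were nearer to HEK293T. The targeted gene, ATM, was not lower in the libraries labelled knockout: it had 39.8, 39.5, 31.99 and 28.8 CPM there and 26.6, 21.2 and 34.2 CPM in 11, 13 and 15 (log2 fold change 0.32, adjusted p = 0.155). A repair-based knockout need not remove the 3′ end that was counted, so this does not settle the genotype. Of the 38 members tested (DNAJA4 and DNAJB13 had too few counts) 19 were called, 11 higher and 8 lower, or 50.0% against 32.1% of 19271 genes (15.8% higher and 16.3% lower). Without 1 library at a time the count stayed at 16 to 18, with 25.2% to 32.2% of all genes called. Adding library 1 as labelled left 1 call, with 3.98% of all genes called. Adding library 17, of the same profile, to libraries 11, 13 and 15 gave 19 calls, 18 of them shared. Past the cutoff of 1 were 5 members, all higher, against 13.3% of all genes (8.67% higher and 4.63% lower).

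Cytosolic partners made up much of the upward side, with 6 of 8 tested called higher and none lower. DNAJA1 had 414, 446, 388 and 434 CPM in libraries 10, 12, 14 and 16 and 205, 153 and 166 CPM in 11, 13 and 15, a 2.35-fold difference (log2 fold change 1.23, SE 0.12, adjusted p = 2.53e-08). DNAJB4 had 50.8, 65.1, 49.6 and 49.5 CPM against 16.2, 9.82 and 19.3 CPM, 3.50-fold higher (log2 fold change 1.81, SE 0.18, adjusted p = 2.4e-08). DNAJB1 had 94.9, 98.1, 75.2 and 111 CPM against 52.0, 52.6 and 41.6 CPM (0.92, SE 0.15, adjusted p = 2.33e-05). DNAJB6 had 95.5, 90.4, 104 and 112 CPM against 61.6, 66.0 and 72.7 CPM, and DNAJA2 had 122, 142, 136 and 134 CPM against 93.8, 88.0 and 105 CPM. None of these 5 groups of libraries overlapped with its counterpart. The share of all genes without overlap was not counted. Library 17, of the same profile and labelled HEK293T DMSO, had 219 CPM of DNAJA1, 52.5 CPM of DNAJB1 and 17.5 CPM of DNAJB4, near libraries 11, 13 and 15.

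Of 17 heat shock targets outside the family 7 were higher and 1 lower, with HSPA1A at 1.62 and HSPA1B at 1.20. Both genes overlapped between groups, and HSPA1A rested on few counts. For HSPA1A, library 14 had 0.9596 CPM, the level of 3 counts there, and lay below library 11 at 1.0105 CPM. For HSPA1B, library 16 had 89.4 CPM and lay below library 11 at 105.3 CPM. Of 25 HSP70 genes and exchange factors 9 were higher and 4 lower. Of 10 p53 targets 8 were higher, GDF15 by 2.67 and CDKN1A by 2.14.

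DNAJC15 differed most in ratio but from few counts. It had 4.90, 5.56, 5.12 and 5.34 CPM in 10, 12, 14 and 16, and 0.674, 0.338 and 0.667 CPM in 11, 13 and 15, which rest on 84 and 9 counts in all. The ratio of the summed levels was 9.54 (95% exact interval 4.79 to 21.6, counting error only), and the fitted adjusted p was 1.05e-06. DNAJC22 had 12.2, 14.5, 17.3 and 12.1 CPM against 5.89, 5.08 and 3.33 CPM, and DNAJC28 had 12.6, 10.49, 12.2 and 11.8 CPM against 5.39, 6.09 and 5.56 CPM. Both were higher without overlap, by 1.47 and 1.00 on the log2 scale. Markers of U2OS cells moved with these calls: they summed to 90.1 to 129 CPM in 10, 12, 14 and 16 and 28.8 to 36.0 CPM in 11, 13 and 15, with CAV1, LGALS1 and ANXA1 higher. S100A6, AXL, CD44 and TGFBI were each at or under 1.33 CPM in all 7 libraries, with S100A6 at 0 in 6 of them. The HEK293T markers summed to 1000 to 1279 CPM and 1145 to 1499.6 CPM. Of these 6 INA was higher (49.3 to 57.7 against 12.7 to 16.9 CPM, log2 fold change 1.77), and NEFM (-0.82) and GAL (-0.51) were lower. The part of either list in the calls was not tested.

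Of the 11 ER members 1 was higher and 4 were lower. DNAJC3 had 147, 138, 128 and 142 CPM in 10, 12, 14 and 16 and 80.0, 93.4 and 96.4 CPM in 11, 13 and 15 (log2 fold change 0.59, SE 0.13, adjusted p = 0.000731). DNAJC18 had 34.6, 28.4, 28.1 and 26.6 CPM against 48.7, 49.6 and 52.2 CPM, the lowest log2 fold change of the members (-0.81, SE 0.15, adjusted p = 0.000117). DNAJB12 had 29.1, 31.8, 35.8 and 43.4 CPM against 52.7, 65.3 and 52.9 CPM (-0.73, SE 0.15, adjusted p = 0.000597). DNAJB11 had 125, 109.6, 135 and 110.2 CPM against 107, 123 and 112 CPM, and DNAJB9 had 18.4, 22.2, 15.4 and 13.8 CPM against 13.5, 13.03 and 25.1 CPM, both uncalled. The calls of DNAJC1 (-0.30) and DNAJC10 (-0.35) did not hold with DESeq2. Of 15 ER stress targets 1 was higher and 3 lower, XBP1 with a log2 fold change of -1.40.

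Mitochondrial members split, with 2 of 7 higher (DNAJC15 and DNAJC28) and 2 lower. DNAJC19 had 50.2, 40.7, 52.5 and 38.7 CPM against 79.0, 69.0 and 73.3 CPM (-0.74, SE 0.14, adjusted p = 0.000209). DNAJA3, a mitochondrial class A member, had 28.8, 33.02, 39.7 and 36.0 CPM against 51.2, 45.2 and 53.3 CPM (-0.57, SE 0.14, adjusted p = 0.00311). DNAJC13, which acts on endosomes, had 31.2, 51.9, 43.5 and 33.2 CPM against 50.5, 54.8 and 58.7 CPM with overlap, and was no longer called without library 10 or library 15 (adjusted p = 0.0648 and 0.0578).

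**Figure D4:**
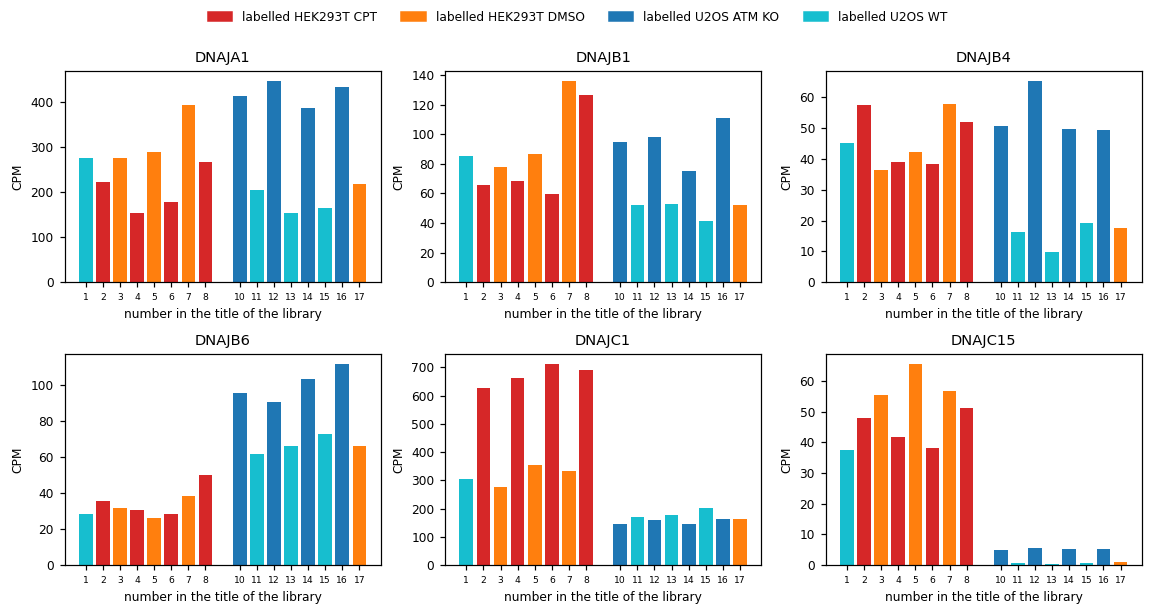
CPM of 6 members in each library numbered 1 to 17, with colour for the label. DNAJC1 is high in libraries 2, 4, 6 and 8, and DNAJA1, DNAJB1, DNAJB4, DNAJB6 and DNAJC15 are higher in 10, 12, 14 and 16 than in 11, 13, 15 and 17.

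Vehicle-treated U2OS (30 to 33) and HEK293T (22 to 25) cells differed in most members, as they did in most genes. These are the control libraries of the CPT and inhibitor comparisons. Of the 40 members 29 were called, 18 higher and 11 lower in U2OS, or 72.5% against 62.1% of 19739 genes (32.01% higher and 30.1% lower). Past the cutoff of 1 were 10 members higher and 3 lower, together against 39.9% of all genes (21.8% higher and 18.1% lower). The median log2 fold change of the members was 0.26 and that of all genes 0.014. With total-count scaling the latter moved to -0.21, and 13 members were higher and 13 lower, with 63.2% of all genes called. DNAJB12, DNAJC3, DNAJC9, DNAJC19 and DNAJC27 then lost their call. Culture and library preparation dates are not given in the labels, and any difference between the sets cannot be told apart from the cell line.

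The order of the most abundant members differed between the lines. In U2OS DMSO the highest were DNAJB11 (433 ± 48.2 CPM), DNAJC10 (322 ± 22.3), DNAJC1 (282 ± 19.2) and DNAJA1 (282 ± 48.9; SD, n = 4 each). Every DNAJC10 library lay above every DNAJC1 library, and DNAJA1 overlapped with both. In HEK293T DMSO they were DNAJC8, a spliceosome-associated member (367 ± 48.4 CPM), DNAJC7, a cochaperone that holds HSP70 and HSP90 at once (238 ± 11.3), DNAJC1 (188 ± 5.44) and DNAJC21, which helps mature the large ribosomal subunit (159 ± 13.3). DNAJC21 overlapped with DNAJC10, the next in order (155 ± 8.48 CPM). DNAJB13 was at the bottom in both lines, with 0 to 0.688 CPM, at or below the level of 3 counts.

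All 9 cytosolic partners differed, 6 higher and 3 lower in U2OS. DNAJA4 had 10.2, 7.91, 6.15 and 7.21 CPM in U2OS and 1.20, 0, 0.752 and 0.592 CPM in HEK293T, from 107 and 9 counts, a ratio of 12.3 (95% exact interval 6.25 to 27.7, counting error only). DNAJB5 had 8.38, 6.28, 9.52 and 7.41 CPM in HEK293T and 35.4 ± 8.15 CPM in U2OS, 5.13-fold higher (adjusted p = 1.43e-13 by edgeR). DNAJB1 and DNAJB2, with the values given above for U2OS, were 3.03-fold and 2.94-fold higher than in HEK293T, where DNAJB2 had 7.48, 8.57, 7.52 and 5.63 CPM. DNAJA1 was 2.29-fold higher (log2 fold change 1.19, SE 0.11). Lower in U2OS were DNAJB6 (26.9 ± 2.33 against 58.0 ± 6.14 CPM, log2 fold change -0.88, SE 0.13), DNAJC7 (-0.82) and DNAJA2 (-0.58, SE 0.13).

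Of the 11 ER members 6 were higher and 2 lower in U2OS. DNAJB11 was 4.10-fold higher (log2 fold change 2.04, SE 0.11, adjusted p = 3.71e-17) and DNAJC10 2.43-fold (1.28, SE 0.11), the latter with 315, 355, 314 and 304 CPM in U2OS and 165, 158, 151 and 146 CPM in HEK293T. DNAJC18 went the other way, with 15.1, 16.5, 13.2 and 16.1 CPM in U2OS and 51.4, 54.5, 59.9 and 59.8 CPM in HEK293T, 3.16-fold lower (adjusted p = 2.47e-12). DNAJB9 did not pass (log2 fold change 0.28, SE 0.18, adjusted p = 0.173), except without library 33 (adjusted p = 0.0432). DNAJC3 was called at 0.27 (SE 0.11, adjusted p = 0.0312), a call lost with total-count scaling (0.04, adjusted p = 0.775), with no filter on low counts (adjusted p = 0.0508) and without library 23, 24, 25, 31 or 32 (0.0629 to 0.0785). Of 15 ER stress targets 9 were higher and 4 lower, and of 17 heat shock targets 12 were higher and 4 lower.

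The widest differences lay outside both groups. DNAJC15 had 0.897, 2.57, 3.76 and 2.37 CPM in HEK293T DMSO against 79.5 ± 5.13 CPM in U2OS DMSO, a ratio of summed levels of 32.4 (95% exact interval 23.2 to 46.8, counting error only). DNAJC12, a partner of the aromatic amino acid hydroxylases, had 0.617, 1.03, 0 and 0.721 CPM in U2OS and 24.5, 20.3, 16.8 and 19.3 CPM in HEK293T, from 8 and 285 counts, 34.4-fold lower by the summed levels (95% exact interval 17.2 to 80.4). DNAJC22 had 21.6, 24.8, 22.6 and 17.8 CPM in U2OS and 8.97, 8.28, 4.01 and 8.59 CPM in HEK293T (log2 fold change 1.77, SE 0.20, adjusted p = 3.11e-09). DNAJC13 was 2.12-fold higher, from 45.8, 52.8, 59.1 and 53.3 CPM in HEK293T to 93.5, 102, 99.9 and 88.9 CPM in U2OS. The mitochondrial DNAJA3 had 16.1, 15.8, 15.8 and 18.7 CPM in U2OS and 55.9, 48.6, 48.1 and 38.8 CPM in HEK293T, 2.44-fold lower, and DNAJC11, a partner of the cristae-organising complex, had 8.03, 8.60, 8.50 and 9.85 CPM against 17.6, 19.4, 19.8 and 18.96 CPM (log2 fold change -0.88, SE 0.18).

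**Figure D5:**
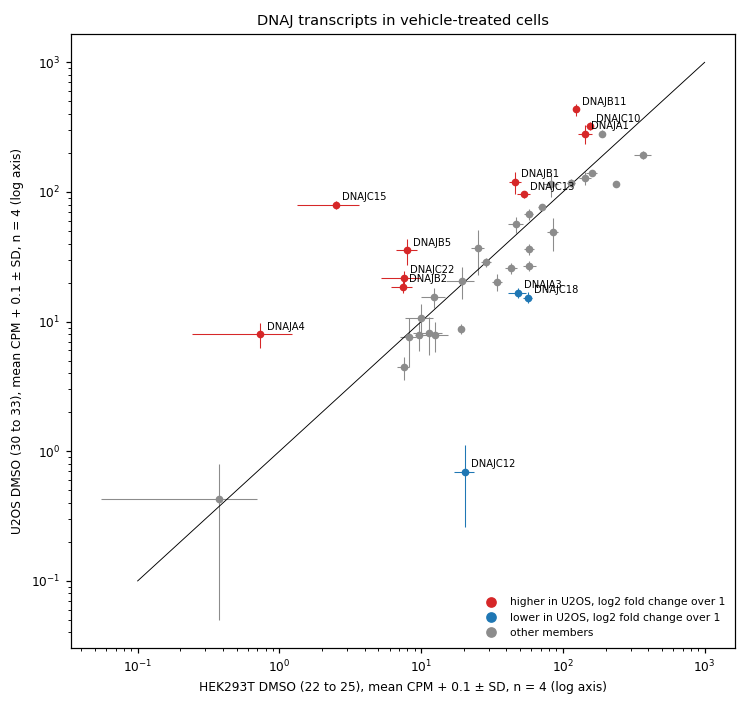
Mean CPM + 0.1 with SD (n = 4) of each member in HEK293T DMSO (horizontal) and U2OS DMSO (vertical), both log axes, with the line of equal levels; bars are drawn no lower than 0.05. Members past a log2 fold change of 1 are named, 10 above the line and 3 below it.

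DNAJC15 ranged from 20.3 to 35.3 CPM in U2OS CPT, 73.6 to 85.5 CPM in U2OS DMSO, 1.09 to 2.398 CPM in HEK293T ATM inhibitor and 0.897 to 3.76 CPM in HEK293T DMSO. Each U2OS library, after CPT too, lay above each of these HEK293T libraries. DNAJB2 ranged from 36.6 to 60.0 CPM in U2OS CPT, 15.8 to 20.2 CPM in U2OS DMSO and 5.63 to 8.57 CPM in HEK293T DMSO. In GRCh38 (GENCODE 29) DNAJC15 spans chr13:43023203-43114224 and DNAJB2 spans chr2:219279267-219286900, each on the plus strand. DNAJC1 spans chr10:21756537-22003769 on the minus strand. DNAJC15 and DNAJB2 overlap no other annotated gene, whereas DNAJC1 overlaps 1 on its own strand and 2 on the other. In all 17 members overlap a gene on the same strand and 22 a gene on the opposite strand, and whether counting used strand is not given in the sources used here.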

How the data were processed

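Poly(A) RNA of 32 samples was sequenced from the 3′ end. The authors deposited a table of raw counts per gene and library. Their processing notes name BlueBee version 1.10.18 and version 2.3.1 of the QuantSeq FWD UMI pipeline of Lexogen. The genome build, annotation and use of strand in counting are not given in the sources used here. The 5 summary rows (10.9 to 40.6% of a library's counts) and 92 spike-in rows (at most 1 count) were left out, and 0 columns were left unused.

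A gene entered a comparison if 2 or more of its libraries held over 1 count, and genes were tested with edgeR 4.0.16 (R 4.3.3), TMM factors and the quasi-likelihood test, with Benjamini-Hochberg adjustment over all genes tested. The filter and the log2 fold change cutoff of 1 follow the study's methods, which used the likelihood ratio test. Totals of 1232674 to 6362433 counts limit members under about 3 counts a library, and intervals cover counting error only. CPM has the total on genes set to 1e+06 in each library. The fit was tested on simulated data.

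Values in every library were given for members past the cutoff, for up to 5 higher and 5 lower members with the largest change among those called with a mean of at least 8 CPM, and for DNAJA1, DNAJA2, DNAJB1, DNAJB6, DNAJB9, DNAJB11 and DNAJC3. Lists outside the family were given by counts, and of the 2 most changed genes called in each, which the rule allowed to be named, only some were. HSPA5, CDKN1A, and HSPA1A, HSPA1B and EDEM1 by library, and the markers, were added after their values were seen. Some genes of these lists are not reported here. The members and lists were chosen with earlier results of these data known. Alternatives were the likelihood ratio test, DESeq2 1.42.0, RLE factors, other filters, the cutoff, a joint fit, other control libraries, leaving out each library, and total-count scaling.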

Additional observations from a re-analysis of the deposited data

Results flagged for a closer look

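In 6 of the 91 groups of 4 libraries examined for the named members, the highest or lowest library stood far from the other 3, and chance alone flags about 1 in 20 groups. DNAJC3 had 129 CPM in U2OS DMSO library 31, against 113.6 to 114 CPM in the others. DNAJA3 had 18.7 CPM in U2OS DMSO library 33, against 15.8 to 16.1 CPM. DNAJC22 had 4.01 CPM in HEK293T DMSO library 24, against 8.28 to 8.97 CPM. Among the libraries labelled HEK293T CPT, DNAJB1 had 126.8 CPM in library 8 against 59.9 to 68.3 CPM, and DNAJC22 had 34.9 CPM in library 2 against 20.7 to 22.3 CPM. Among those labelled U2OS ATM KO, DNAJB4 had 65.1 CPM in library 12, against 49.5 to 50.8 CPM.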

How the results depend on the processing

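No paired analysis was run, since the groups compared share no replicate numbers and no label ties libraries across groups. With the log2 fold change cutoff as well, 2 members were called after CPT in U2OS (1 higher, 1 lower), 1 in libraries 2 to 8 (1 higher, 0 lower), 5 in libraries 10 to 16 (5 higher, 0 lower) and 13 between the lines (10 higher, 3 lower). Adding library 17 as labelled to libraries 2 to 8 left 0 calls (0 higher, 0 lower), with 0.205% of all genes called. Adding library 1 as labelled to libraries 10 to 16 left 1 (1 higher, 0 lower), with 3.98% of all genes called. It also turned DNAJC15 to -0.89 (adjusted p = 0.735 by edgeR). In both cases the added library was of the other profile. DESeq2 left 5 lower members in libraries 10 to 16. Total-count scaling, chosen after seeing the data, gave 8 lower members after CPT in U2OS and 2 higher in libraries 2 to 8; the cause was not tested. Leaving out each library gave 13 to 15 calls after CPT in U2OS (9 to 10 higher, 4 to 5 lower), 0 with the ATM inhibitor, 2 to 9 in libraries 2 to 8 (1 to 2 higher, 1 to 7 lower), 16 to 18 in libraries 10 to 16 (10 to 12 higher, 5 to 6 lower) and 28 to 30 between the lines (16 to 19 higher, 11 to 12 lower). Members with few counts, such as DNAJB13, DNAJA4 and DNAJC12, are limited by depth.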
